A study of Rattus norvegicus with 8 samples.

Results

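The genes described here make sterols from acetyl-CoA, control the SREBP transcription factors that drive this synthesis, or belong to the LXR system that responds to sterol excess. They were listed by function, and the list was chosen by one measured value, the higher Idi1 level in doxorubicin hearts of these same data. The list names 30 genes. Of these, 29 were measured, by 53 probe sets among 31042, as 29 of 14217 genes with a symbol, and Hmgcs1 is not analysed here. Where a gene has several probe sets (17 members do), its brightest by mean level stands for it as the main one, and the others are read beside it. Levels of different probe sets are not compared.

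RNA came from isolated hearts of male Wistar rats, 8 in all, and each was read on a separate Affymetrix array. According to the labels, 4 hearts were perfused with 2 µM doxorubicin and 4 without drug, for 2 h in both groups. In this Langendorff method an excised heart is fed through the aorta, and the perfusate was not recirculated. The labels call the hearts biological replicates. They give no age, and every value is from a heart outside the body. Doxorubicin is an anthracycline cancer drug that poisons topoisomerase II and can damage the heart.

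Cells build cholesterol from acetyl-CoA through mevalonate, isoprenoid diphosphates, squalene and lanosterol. When sterols are scarce in the endoplasmic reticulum, the escort protein SCAP carries SREBP precursors to the Golgi, where they are cut and released as active transcription factors. When sterols are plentiful, INSIG proteins hold SCAP back, and oxysterols activate the liver X receptors (LXR), which raise sterol efflux genes. In promoters of SREBP targets, sterol regulatory elements are known to act together with CCAAT boxes bound by NF-Y and GC boxes bound by Sp1.

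Stretches before the transcription start in RefSeq's promoter table are shown for members whose hearts did not overlap between the groups by the main probe set. Idi1, Fdps, Lss, Scap and Nr1h3 had every doxorubicin heart above every control heart, and Insig1 had every doxorubicin heart below. The Nr1h3 window lies inside the annotated gene and is not printed, and the stretches of Scap and Insig1 stop where the annotated gene begins. Capitals mark the CCAAT box on either strand (CCAAT or ATTGG). The sequences are RefSeq's on GRCr8, read 5′ to 3′ on the minus strand except Scap on the plus strand, Idi1 at chr17:66547525-66547724, Fdps at chr2:176804817-176805016, Lss at chr20:12118231-12118430, Scap at chr8:119184238-119184365 and Insig1 at chr4:8057813-8057969.
Idi1: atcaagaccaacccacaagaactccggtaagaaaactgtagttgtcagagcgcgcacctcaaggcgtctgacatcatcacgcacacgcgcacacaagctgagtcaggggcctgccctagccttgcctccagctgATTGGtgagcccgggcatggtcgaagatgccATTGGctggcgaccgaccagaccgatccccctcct
Fdps: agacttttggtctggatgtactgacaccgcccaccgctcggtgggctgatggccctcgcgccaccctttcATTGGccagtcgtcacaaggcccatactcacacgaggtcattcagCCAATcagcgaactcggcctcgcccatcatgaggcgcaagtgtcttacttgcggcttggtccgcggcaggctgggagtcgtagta
Lss: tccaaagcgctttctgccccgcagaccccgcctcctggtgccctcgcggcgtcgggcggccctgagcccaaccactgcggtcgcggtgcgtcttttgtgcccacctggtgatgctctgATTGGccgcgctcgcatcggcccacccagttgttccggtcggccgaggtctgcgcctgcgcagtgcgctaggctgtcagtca
Scap: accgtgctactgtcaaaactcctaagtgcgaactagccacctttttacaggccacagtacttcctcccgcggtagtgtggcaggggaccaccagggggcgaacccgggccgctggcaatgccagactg
Insig1: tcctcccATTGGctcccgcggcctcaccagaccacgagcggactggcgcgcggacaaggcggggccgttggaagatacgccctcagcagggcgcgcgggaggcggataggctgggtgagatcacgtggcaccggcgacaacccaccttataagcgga
In Idi1 the CCAAT boxes begin 66 and 35 bases before the start, in Fdps 130 and 85, in Lss 82 and in Insig1 193. Scap and Nr1h3 held none in the searched window. Windows of 250 bases before the start were found for 24 of the 29 measured members. A CCAAT box was present in 12 of 15 synthesis enzymes, in 4 of 5 SREBP regulators and in 1 of 4 LXR genes, against 34.0% of all 33469 windows of the table. The GC box GGGCGG, searched on both strands, was present in 12 of 15 synthesis enzymes, against 30.5% of all windows. The letters TCACNCCAC of a classical sterol regulatory element, on either strand, were in none of the 24 windows' genes and in 0.974% of all windows. These are matches of letters only, and a missing match says nothing of SREBP binding.

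Idi1 encodes isopentenyl-diphosphate isomerase, which makes dimethylallyl diphosphate, the starter of isoprenoid chains. Its log2 values were 8.93, 8.56, 8.38 and 8.33 in doxorubicin hearts 1 to 4, against 7.45, 7.83, 7.37 and 7.25 in control hearts 1 to 4. The lowest doxorubicin heart lay above the highest control heart, control 2. Means were 8.55 ± 0.27 in doxorubicin and 7.47 ± 0.25 in control hearts (SD, n = 4 each), a 2.11-fold higher level (log2 difference 1.08, SE 0.15). Since this rise chose the set, it is given as a description and no test is attached to it. A second, dimmer Idi1 probe set read 5.62, 5.65, 5.10 and 5.40 in doxorubicin hearts, against 5.02, 5.22, 4.94 and 4.82 in control hearts. Its difference was smaller, 0.44 (SE 0.13), and doxorubicin 3 lay within the control range. In whole-heart RNA, a change in RNA per cell and a change in the number of cells of a type cannot be told apart.

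Across all genes, 2.97% were called by limma at an adjusted p under 0.05, 0.802% higher and 2.17% lower. Among the members, Idi1 passed as higher, which carries no weight since its rise chose the list, and none was called lower. None of the other 28 passed in limma by its main probe set, the smallest adjusted p being 0.102 for Insig1. At an unadjusted p under 0.05, 10 of the 28 were higher (35.7%) and 1 was lower (3.57%), while over all genes 9.67% were higher and 7.07% lower. Groups did not overlap in 4 of the 28 with doxorubicin above (14.3%) and in 1 with doxorubicin below (3.57%), against 5.75% and 4.69% of all genes. The median log2 difference of the 28 was 0.11 and that of all genes 0.0063. These shares describe a list drawn up with results of these hearts known, and no test was made over it.

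**Figure D1:**
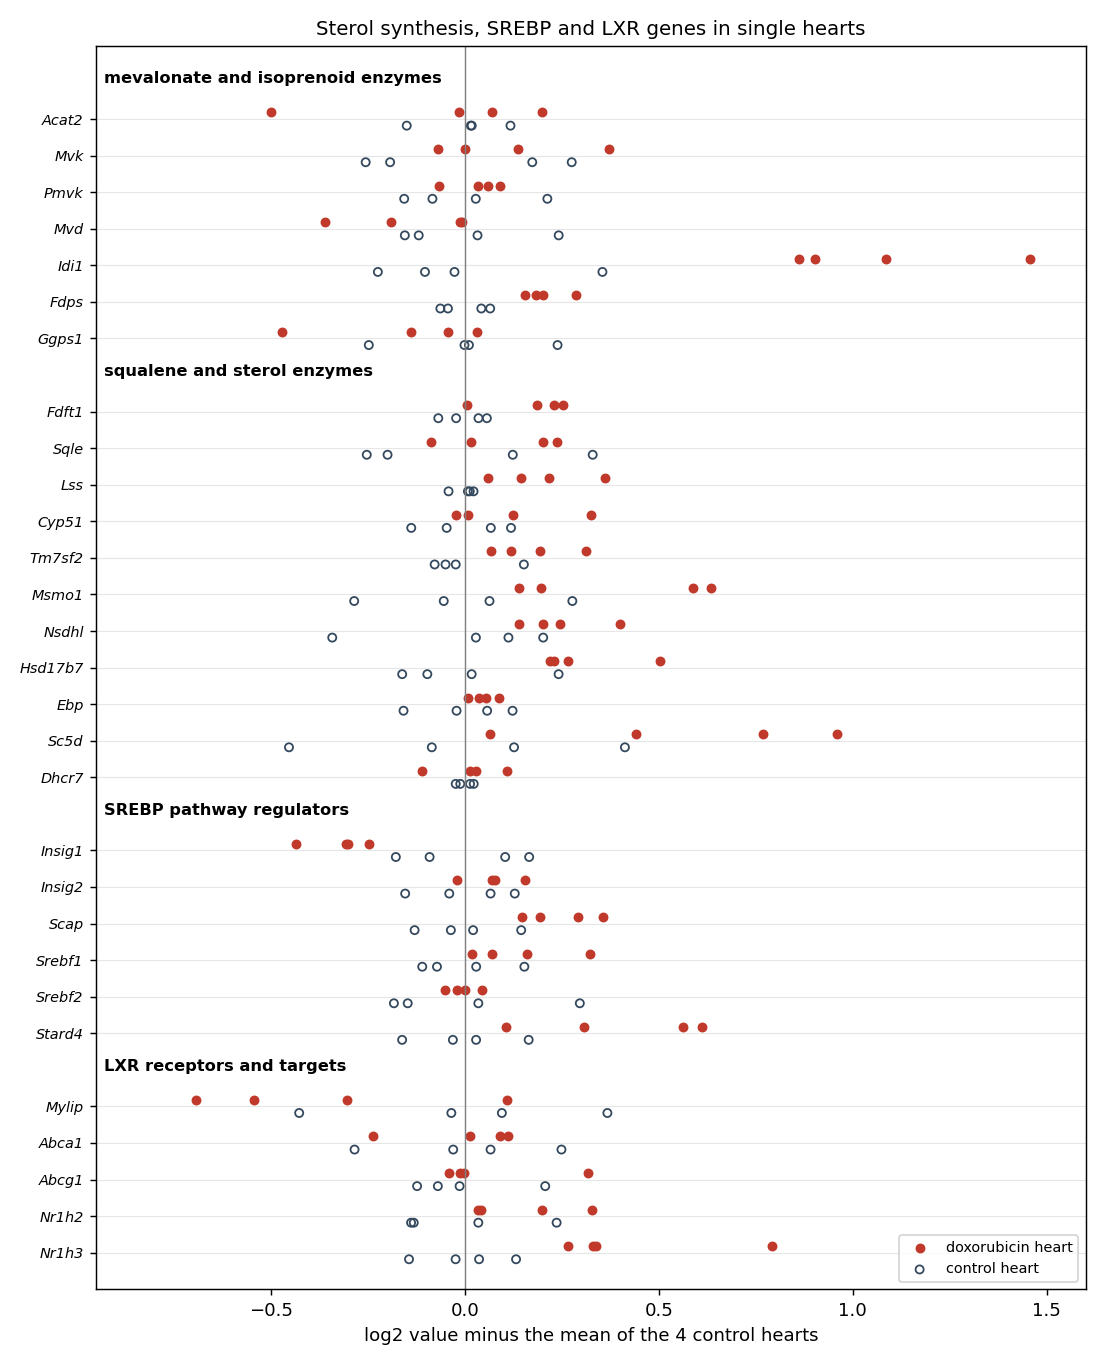
Log2 values of the 29 measured members in each heart, with the mean of the 4 control hearts of that gene set to 0, filled red points for doxorubicin hearts and open points for control hearts. Idi1 is farthest to the right, and Insig1 has all 4 doxorubicin hearts left of the control hearts.

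The other enzymes of the mevalonate stage were mostly near their control levels. Fdps, which joins isoprenoid units to farnesyl diphosphate, stood apart in this stage by its narrow spread. It read 8.87, 8.95, 8.85 and 8.82 in doxorubicin hearts, against 8.73, 8.71, 8.60 and 8.62 in control hearts. The groups did not overlap, but the difference was small, 0.21 (SE 0.06, limma adjusted p = 0.122). Mvk and Pmvk, the kinases that phosphorylate mevalonate in turn, had differences of 0.11 (SE 0.14) and 0.03 (SE 0.08). Mvd, which decarboxylates the product to isopentenyl diphosphate just before Idi1 acts, was at -0.14 (SE 0.11). Acat2, the cytosolic thiolase of the first step, was at -0.06 (SE 0.14), and Ggps1, which makes geranylgeranyl diphosphate for protein prenylation, at -0.16 (SE 0.13). The other Ggps1 probe sets were at 0.02 and 0.11, and the other Mvk probe sets at 0.15 and 0.02. By the main probe sets, the 3 negative differences among the 18 measured enzymes were all in the mevalonate and isoprenoid stage. The 95% interval was -0.38 to 0.10 for Mvd and -0.44 to 0.13 for Ggps1.

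All 11 enzymes from squalene synthase to the last sterol reductase had positive differences by their main probe set, with a median of 0.17, while 51.9% of all genes had positive differences. None of the 11 passed by that probe set in limma, and 6 were higher at an unadjusted p under 0.05. Lss, which closes squalene epoxide into lanosterol, was the one of them whose groups did not overlap. Its main probe set read 5.60, 5.67, 5.51 and 5.82 in doxorubicin hearts, against 5.47, 5.46, 5.41 and 5.48 in control hearts. Control hearts lay within a narrow range, and the difference was 0.20 (SE 0.07, limma adjusted p = 0.238). The dimmer Lss probe set read 5.01, 5.24, 4.81 and 5.24 in doxorubicin hearts, against 4.44, 4.66, 4.44 and 4.48 in control hearts. It was the only member probe set besides the main one of Idi1 to pass, 1.48-fold higher (0.57, SE 0.10, limma adjusted p = 0.0205), with no overlap. Of all probe sets 2.21% were called, 0.689% higher. That call was lost without doxorubicin 1, 2 or 4 or control 3 or 4, with differences of 0.51 to 0.59 and adjusted p up to 0.0705.

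Sc5d and Msmo1 had the highest differences of the sterol stage and also the largest SE. Sc5d, the sterol desaturase near the end of the pathway, read 7.07, 7.27, 6.37 and 6.75 in doxorubicin hearts, against 5.85, 6.72, 6.43 and 6.22 in control hearts. Doxorubicin 3 lay inside the control range, and the difference of 0.56 (SE 0.22) did not pass in limma (adjusted p = 0.285). Its other probe sets were at 0.43 and 0.18. Msmo1, a methylsterol oxidase that removes methyl groups after lanosterol, read 7.94, 7.89, 7.45 and 7.50 in doxorubicin hearts, against 7.02, 7.58, 7.37 and 7.25 in control hearts. Control 2 lay above doxorubicin 3 and 4, and the difference was 0.39 (SE 0.15, limma adjusted p = 0.261). Hsd17b7, a ketoreductase of the same demethylation, was at 0.30 (SE 0.10) and its partner dehydrogenase Nsdhl at 0.25 (SE 0.11). Their other probe sets were lower, at 0.17 (SE 0.07) for Hsd17b7 and 0.07 (SE 0.09) for Nsdhl.

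Fdft1, squalene synthase and the first enzyme committed to sterols, agreed across its probe sets. The main one was at 0.17 (SE 0.07), with doxorubicin hearts at 8.55 to 8.80 and control hearts at 8.47 to 8.60. The other was at 0.18 (SE 0.06), with doxorubicin hearts at 7.73 to 7.84 and control hearts at 7.53 to 7.67 and no overlap. Sqle, the epoxidase that is a known control point of the pathway, was at 0.09 (SE 0.13), with a 95% interval of -0.21 to 0.39. Tm7sf2, a sterol reductase, was at 0.17 (SE 0.08) and Cyp51, the lanosterol demethylase, at 0.11 (SE 0.09). The main Cyp51 probe set carries the suffix by which Affymetrix marks sets that may read related transcripts, and the other one was at -0.08. Ebp, a sterol isomerase, was at 0.05 (SE 0.07) and Dhcr7, the reductase that yields cholesterol, at 0.01 (SE 0.06).

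**Figure D2:**
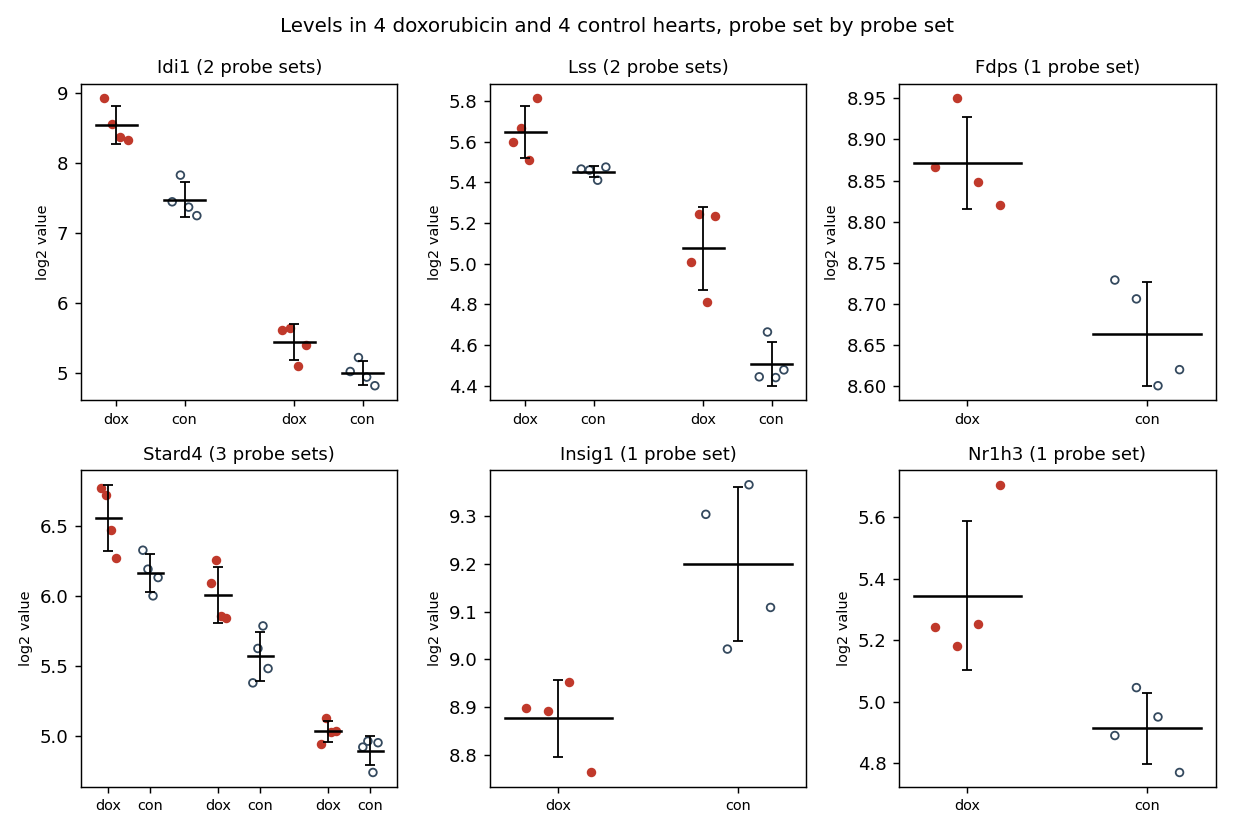
Log2 values of every probe set of 6 members, with 4 doxorubicin hearts (dox, filled) left of 4 control hearts (con, open), the horizontal bar at the mean and the error bar 1 SD either way. Pairs of columns are the probe sets of a gene from brightest to dimmest, and the vertical scale differs between panels.

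Insig1, which retains SCAP in the endoplasmic reticulum and is itself a known SREBP target, had the opposite sign from Idi1 and most enzymes. It read 8.90, 8.89, 8.95 and 8.76 in doxorubicin hearts, against 9.30, 9.02, 9.37 and 9.11 in control hearts. Every doxorubicin heart lay below every control heart, and the difference was -0.32 (SE 0.09, limma adjusted p = 0.102). Without control 2 the same gene passed in limma (-0.38, adjusted p = 0.044), and without the other single hearts it did not. Control 2 was the lowest control heart for Insig1, so leaving it out widens this difference by construction. Leaving out control 2 also gave 854 called probe sets in place of 687. Insig2, the relative of Insig1 that is not under the same SREBP control, was at 0.07 (SE 0.07) and its other probe set at 0.14. The 95% interval of Insig1 was -0.51 to -0.13.

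Scap read 6.60, 6.66, 6.45 and 6.50 in doxorubicin hearts, against 6.33, 6.45, 6.17 and 6.27 in control hearts. Its lowest doxorubicin heart (6.451) was just above its highest control heart (6.449), and the difference was 0.25 (SE 0.08, limma adjusted p = 0.158). The other Scap probe set did not share it and stood at -0.02. The transcripts of the factors themselves were close to control levels. Srebf2, which encodes the SREBP that mainly drives sterol enzymes, read 6.82, 6.87, 6.85 and 6.92 in doxorubicin hearts, against 7.17, 6.72, 6.91 and 6.69 in control hearts. The control hearts spanned a wider range than the doxorubicin hearts, and the difference was -0.01 with a 95% interval of -0.23 to 0.22. A second, dim Srebf2 probe set was at -0.05. Srebf1, whose product mainly drives fatty acid synthesis, was at 0.14 (SE 0.08) and its other probe set at -0.01. These arrays read transcripts and say nothing of the cutting of SREBP proteins.

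Stard4, a sterol carrier and known SREBP-2 target, had a positive difference in each of its 3 probe sets. The brightest read 6.77, 6.72, 6.47 and 6.27 in doxorubicin hearts, against 6.33, 6.19, 6.0 and 6.13 in control hearts. Doxorubicin 4 lay below control 1, and the difference was 0.40 (SE 0.12, limma adjusted p = 0.143). The next read 6.09, 6.25, 5.85 and 5.84 in doxorubicin hearts, against 5.38, 5.62, 5.79 and 5.48 in control hearts. Here the groups did not overlap (0.44, SE 0.11, limma adjusted p = 0.097), while the dimmest was at 0.14 (SE 0.07). With each gene's probe sets averaged, limma called Stard4 (0.33, adjusted p = 0.0461) and Lss (0.38, adjusted p = 0.0354) higher beside Idi1 (0.76). That fit called 488 of 14217 genes in either direction, in place of 422, with p adjusted over genes and not over 31042 probe sets.

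**Figure D3:**
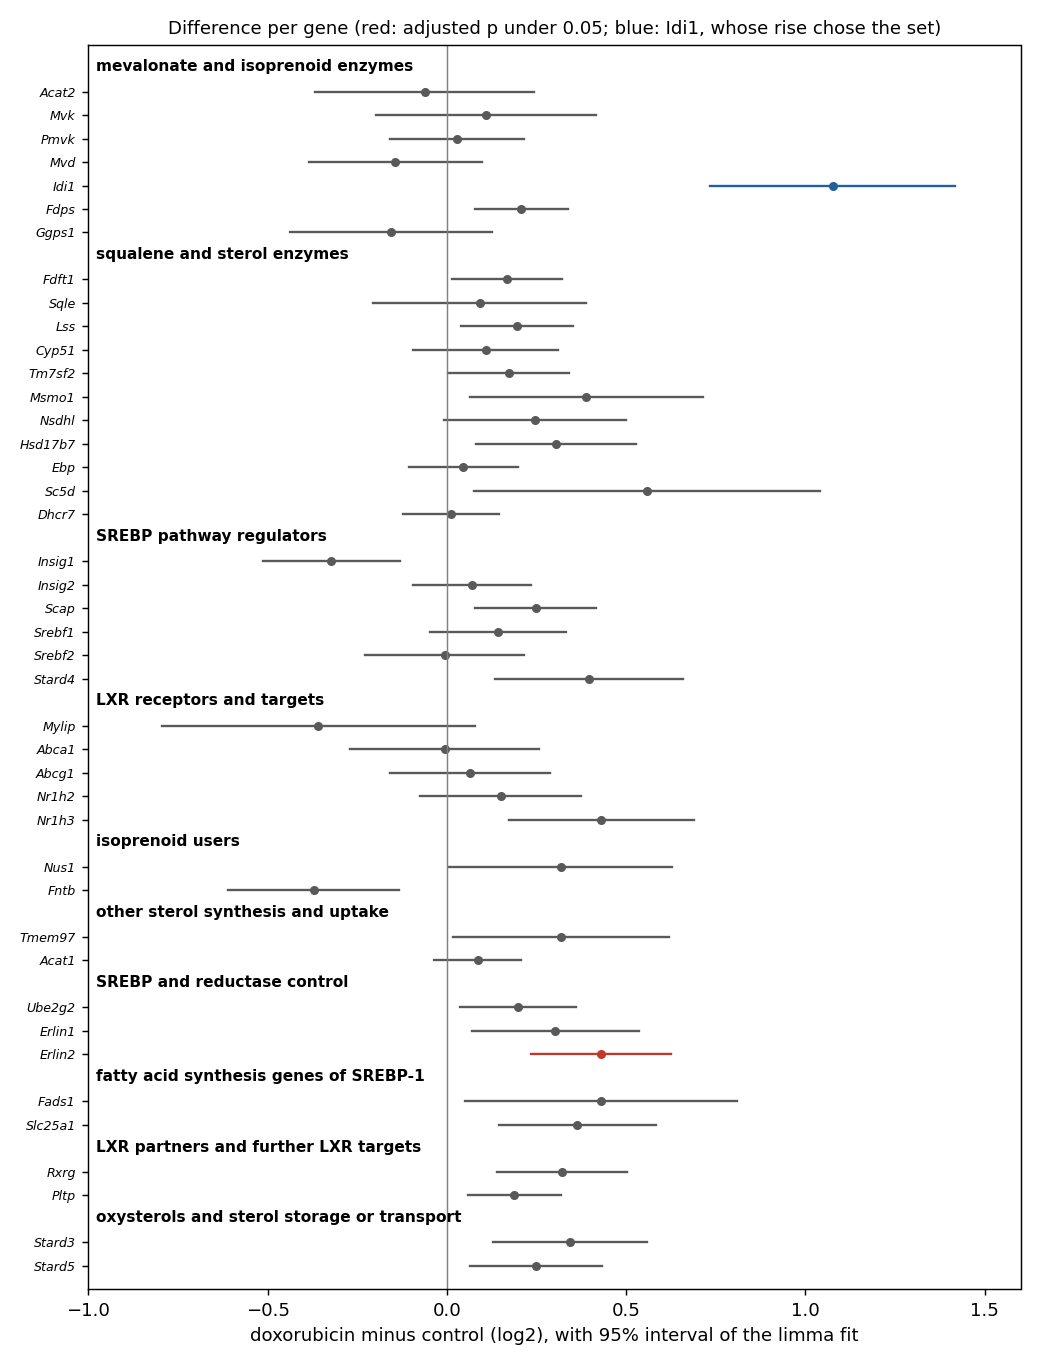
Doxorubicin minus control on the log2 scale for each member and for named genes of 6 further lists, points with the 95% interval of the limma fit. Erlin2, in red, was the gene outside the member list with an adjusted p under 0.05, and Idi1, in blue, is shown as a description.

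Of the LXR genes, Nr1h3, which encodes LXR alpha, had groups that did not overlap, while the groups of the efflux genes overlapped. Nr1h3 read 5.24, 5.18, 5.25 and 5.71 in doxorubicin hearts, against 4.89, 5.05, 4.95 and 4.77 in control hearts. Doxorubicin 4 stood above all other hearts, and the difference of 0.43 (SE 0.12) did not pass in limma (adjusted p = 0.106). Macrophages carry much LXR alpha, and the 12 macrophage markers summed to 2511 to 3252 in doxorubicin and 2334 to 3019 in control hearts, highest in doxorubicin 4. Of these markers 0 were called (1 higher and 2 lower unadjusted), and their part in the Nr1h3 value was not tested. Nr1h2, which encodes LXR beta, was at 0.15 (SE 0.10) and its other probe set at 0.01. Abca1 and Abcg1, the transporters that export sterols and are raised by LXR, were at -0.01 (95% interval -0.27 to 0.26) and 0.06 (-0.16 to 0.29). The other Abcg1 probe sets were at 0.05 and -0.05. Further Abca1 probe sets were at -0.38, -0.04 and 0.03, the last 2 of them among the dimmest 25% on these arrays. Mylip, an LXR-raised ubiquitin ligase that acts on lipoprotein receptors, read 6.71, 6.32, 6.47 and 7.12 in doxorubicin hearts, against 6.59, 7.38, 7.11 and 6.98 in control hearts. Its groups overlapped, and the difference was -0.36 (SE 0.20, limma adjusted p = 0.485).

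Within the doxorubicin hearts, several members followed one order. Hearts 1 and 2 were both above hearts 3 and 4 in 10 of 29 members (34.5%), which were Mvk, Pmvk, Idi1, Fdps, Cyp51, Msmo1, Ebp, Sc5d, Scap and Stard4. The same order held in 16.3% of all genes, and it was picked out after the values were seen. Among control hearts, control 2 was the highest in 14 of 29 members, Idi1, Msmo1 and Sc5d included, against 29.5% of all genes. The mean log2 level over the 17 synthesis enzymes other than Idi1 was 6.33, 6.33, 6.27 and 6.33 in doxorubicin hearts 1 to 4, against 6.13, 6.26, 6.17 and 6.15 in control hearts 1 to 4. By this mean the lowest doxorubicin heart, 3, was only just above the highest control heart, 2.

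The rest of the pathway was read from 6 further lists of 94 genes, of which 78 were measured. A single gene was called, Erlin2, a membrane protein of the endoplasmic reticulum that takes part in degradation there and belongs to the list of SREBP and reductase control. It read 7.35, 7.16, 7.40 and 7.56 in doxorubicin hearts, against 6.82, 7.03, 6.97 and 6.93 in control hearts, with no overlap. The difference was 0.43 (SE 0.09, limma adjusted p = 0.0356), 1 of 10 measured genes of its list, and the call was lost without any single heart other than doxorubicin 2 and control 2 (adjusted p up to 0.108). Its relative Erlin1 was at 0.30 (SE 0.10) and the ubiquitin-conjugating enzyme gene Ube2g2 at 0.20 (SE 0.07). None of the 78 was called lower. Before adjustment, 13 of the 78 reached a limma p under 0.05 as higher (16.7%) and 4 as lower (5.13%). Over all genes these shares were 9.67% and 7.07%. After adjustment, limma called 0.802% of all genes higher, beside the 1 call among these 78.

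Genes listed as users of isoprenoids showed no common direction. The list also holds Uchl3 (-0.04, SE 0.08), a ubiquitin hydrolase gene that is not an isoprenoid enzyme. Of 11 measured none passed in limma, 1 was higher and 2 were lower unadjusted, and the median was -0.01. Fntb, the beta subunit of farnesyltransferase, was at -0.37 (SE 0.11) and Nus1, a subunit of the enzyme that makes dolichol precursors, at 0.32 (SE 0.14). Of 10 further genes of sterol synthesis and uptake none passed (1 higher and 0 lower unadjusted), with Tmem97 at 0.32 (SE 0.13) and the mitochondrial thiolase gene Acat1 at 0.09 (SE 0.05). None of 15 genes for oxysterols and for sterol storage or transport passed (3 higher and 1 lower unadjusted), with the sterol-binding genes Stard3 at 0.34 (SE 0.10) and Stard5 at 0.25 (SE 0.08). None of 14 LXR partners and further targets passed (2 higher and 1 lower unadjusted). There Rxrg, which encodes a retinoid X receptor that pairs with LXR, was at 0.32 (SE 0.08, limma adjusted p = 0.0855) with its other probe set at -0.09, and Pltp, a phospholipid transfer protein, at 0.19 (SE 0.06).

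Among fatty acid synthesis genes, the classical targets of SREBP-1, none of 18 passed in limma, 2 were higher and 0 lower unadjusted, with the citrate carrier gene Slc25a1 at 0.36 (SE 0.10, adjusted p = 0.105) and the desaturase gene Fads1 at 0.43 (SE 0.17). Scd, the stearoyl-CoA desaturase, read 7.19, 4.15, 4.15 and 10.31 in doxorubicin hearts, against 4.24, 6.16, 4.68 and 4.10 in control hearts. Doxorubicin 4 and 1 and control 2 were high and the others low, and the difference of 1.65 had an SE of 1.22. Fasn, the fatty acid synthase, ranged from 6.16 to 9.18 in doxorubicin hearts and from 6.01 to 7.31 in control hearts, again with doxorubicin 4 and control 2 highest. Thrsp and Acly followed the same hearts and, like Scd and Fasn, were named after their values were seen. Without doxorubicin 4 and control 2, the difference of Scd was 0.82, that of Fasn 0.29 and that of Thrsp 0.32.

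Doxorubicin 4 was the highest doxorubicin heart in 9 of 11 measured adipocyte markers, and control 2 the highest control heart in 7. The fat hormone gene Adipoq read 5.14, 4.52, 4.72 and 8.04 in doxorubicin hearts, against 4.53, 6.08, 5.27 and 4.56 in control hearts. Of the 11 markers 0 were called by limma (0 unadjusted), and their summed linear level was 4319 to 7532 in doxorubicin and 4226 to 4987 in control hearts. Most of that sum came from the bright Fabp4 and Cidea. Fabp4 read 11.31 to 11.83 in doxorubicin and 11.26 to 11.50 in control hearts, and Cidea 10.37 to 10.98 and 10.42 to 10.69. The sum therefore hardly follows dimmer markers such as Adipoq. The leptin gene Lep, at 4.03 to 4.11 in doxorubicin and 4.06 to 4.24 in control hearts, had a mean among the dimmest 25% of probe sets. Their part in the fatty acid synthesis values was not tested. The differences of Idi1 (1.27), Msmo1 (0.55), Sc5d (0.73) and Stard4 (0.50) without doxorubicin 4 and control 2 are an alternative chosen after seeing the data. Control 2 was the highest control heart for Idi1, Msmo1 and Sc5d, and doxorubicin 4 the lowest doxorubicin heart for Idi1 and Stard4, so leaving them out widens these differences by construction. By the main probe set, limma called none of the other 28 members without these hearts. Nr1h3, with doxorubicin 4 highest, stood at 0.35 without these hearts, and Abcg1 at -0.06.

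**Figure D4:**
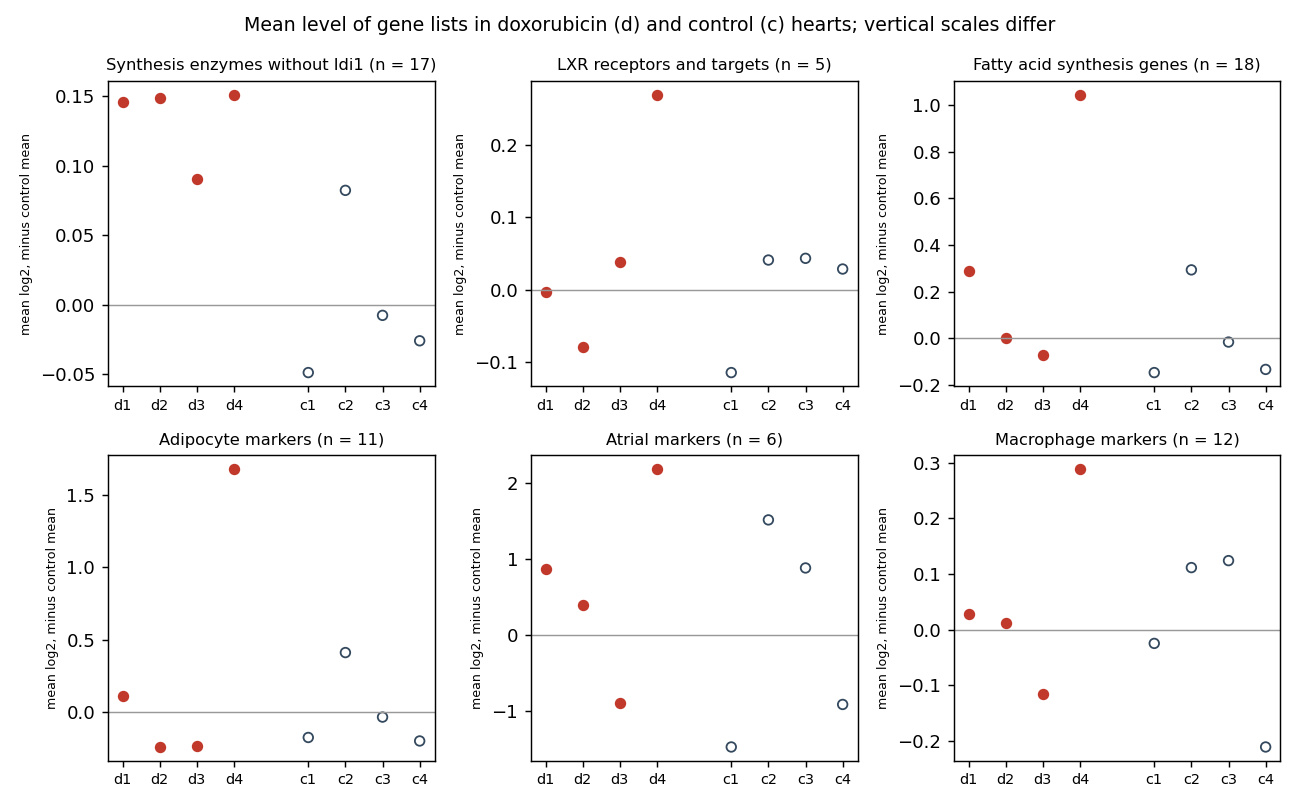
Mean log2 level of 6 gene lists in each heart, minus the mean of the 4 control hearts, with doxorubicin hearts (d1 to d4, filled) left of control hearts (c1 to c4, open) and a different vertical scale in each panel. Fatty acid synthesis genes, LXR genes and adipocyte, atrial and macrophage markers are all highest in d4, while the synthesis enzymes of d4 are level with those of d1 and d2.

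Cardiomyocyte markers were high in every heart, and the 9 measured summed to 102366 to 107129 in doxorubicin and 103689 to 106497 in control hearts. One of them, Nppb, was called lower. Atrial markers differed by heart, with a summed level of 2747 to 21813 in doxorubicin and 2305 to 11886 in control hearts and 0 of 6 called (0 unadjusted). The atrial sum was highest in doxorubicin 4 and, among control hearts, in control 2, the same hearts as for adipocyte markers. Of 7 endothelial markers 1, Tie1, was called higher (sums 2634 to 3160 in doxorubicin, 2861 to 3053 in control hearts). Of 8 fibroblast markers 0 were called (1 higher unadjusted), with sums of 17099 to 22103 in doxorubicin and 12421 to 19857 in control hearts, and of 7 smooth muscle and pericyte markers 0 (2 higher and 1 lower unadjusted). The fibroblast sum was also highest in doxorubicin 4. The part of all these markers in the member values was not tested. Arrays correlated at 0.988 to 0.996 within and 0.985 to 0.993 between groups over probe sets, which are not replicates. The hybridization controls, bacterial and phage sequences added to each sample, averaged 9.97 to 10.13 log2 on doxorubicin and 10.21 to 10.57 on control arrays. The groups did not overlap in this level, so a fit with it as a covariate can only poorly separate it from the treatment. In that fit limma called 0 members, and Idi1 stood at 1.13 (SE 0.27) and Insig1 at -0.12.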

How the data were processed

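RNA of 8 perfused rat hearts was read on Affymetrix arrays. The deposited intensity of each probe set is an RMA value, per the submitters' processing notes; the software that ran RMA is not given in the sources used here. They were on a linear scale (array medians 29.9 to 31.0), so log2 was taken with no offset. RMA aligns the distributions of the arrays, so a shift of most transcripts would not show. Arrays have no sequencing depth, and their number limits precision. After leaving out 57 AFFX controls, 31042 probe sets were fitted with limma 3.58.1 in R 4.3.3 (lmFit, eBayes, no covariate), doxorubicin minus control, with two-sided p-values adjusted by Benjamini-Hochberg over all of them, called under 0.05. Each p-value sets the group difference against the spread between these hearts, with variances drawn toward those of all probe sets.

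Symbols came from the platform annotation, updated by gene ID through RefSeq's GRCr8 table (20758 of 20826 probe sets with 1 symbol matched; 436 with several and 9780 with none were left unnamed). Under 4.16 log2 lie the dimmest 25% of probe sets. Every member is accounted for. Of the further lists, each called gene and the 2 others with the smallest p were named. Members and lists were chosen with earlier results of these data known. The fit was tested on simulated data. Alternatives were other normalizations, filters, variance models, weights and offsets, probe set means, the replicate block, the hybridization covariate and leaving out each heart. The labels do not say that shared replicate numbers mark pairs, and the main fit did not pair the hearts. Figures used Python 3.11.15 with matplotlib 3.10.9.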

Additional observations from a re-analysis of the deposited data

Results flagged for a closer look

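Some hearts lay far from the other 3 of their group in 7 of 140 groups of 4 values, each group being a probe set in one treatment. Chance alone gives about 1 in 20, and the number found was no more than that share. Doxorubicin 4 was apart in 4 of them. It read 4.90 for Hsd17b7 (the others 4.62 to 4.67), 5.71 for Nr1h3 (5.18 to 5.25), 6.45 for Abcg1 (6.10 to 6.13) and 4.20 for a dim Abca1 probe set (4.03 to 4.05). Control 2 was apart with 4.66 for the dimmer Lss probe set (the other control hearts 4.44 to 4.48) and 6.78 for Thrsp (4.98 to 5.21). Doxorubicin 2 was apart with 5.81 for the second Mvk probe set (5.43 to 5.50).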

How the results depend on the processing

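Over all alternatives, each heart left out included, 845 values of 47 single results were recomputed, of which 826 kept their sign. Of the 845, 816 were counted as unchanged. A called value was so counted if it kept its call and sign, whatever its shift. An uncalled value was so counted if it stayed uncalled with a shift within the spread between hearts. Leaving out 1 of 4 hearts cannot shift a difference beyond that spread. The filter, the variance model and the replicate block left the differences as they were. For these alternatives only a call gained or lost could change the count, so the 816 is no measure of robustness. No called value changed sign. With the hybridization covariate, 92 probe sets and 60 genes were called in place of 687 and 422, 0 members and 0 further pathway genes among them. Idi1 stood at 1.13 without a call there. The covariate level did not overlap between the groups, so that fit poorly separates it from the treatment. Averaging each gene's probe sets called 3 members higher, Idi1, Lss and Stard4, among 488 genes called in either direction. Leaving out 1 heart gave 397 to 854 probe sets, 248 to 512 genes, 1 member higher, 0 to 1 member lower and 0 to 1 further gene higher. The member higher was Idi1 each time, and its count carries no weight since its rise chose the list. The probe set count fell by more than 1.5 times without doxorubicin 1 (397), 2 (452) or 3 (435) or control 3 (444). Without doxorubicin 4 and control 2 together 0 further genes were called. Slc25a1 gained a call without doxorubicin 1 (0.45, adjusted p = 0.042). The cause of these shifts was not tested.

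Hearts with the same replicate number did not deviate together (correlations of -0.18 to 0.06 over probe sets). Such correlations cannot show whether these hearts were run as pairs. With a replicate block, 511 probe sets, 305 genes and 1 member, again Idi1, were called. Erlin2 lost its call there (0.43, adjusted p = 0.0875), leaving 0 further genes higher, and Fntb gained one (-0.37, adjusted p = 0.0471), so that 1 was lower. RMA values carry no detection call, so whether the 4 dim member probe sets lay above background is unknown.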
